A study of Mus musculus with 7 samples.

Results

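The genes described here are the short genes of a retinoic acid time course in CCE, a mouse embryonic stem cell line, compared between day 6 and day 5. A gene was taken if a transcript of 1500 nt or less is listed for it and its value on day 5 or day 6 was 7 or more on the log2 scale, and of several such transcripts the 1 with the highest 7-day mean was used. This gave 1850 genes of the 12071 gene symbols in the deposited table, 1779 of them coding and 71 noncoding. In all, 2007 symbols had a transcript of this length, and 157 of them stayed under the value of 7 on both days. The median day 6 minus day 5 difference of the 1850 genes was subtracted from each difference, and the result is called the centred difference below.

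CCE cells were grown without feeder cells on gelatin. The day 5 and day 6 cultures had no leukemia inhibitory factor (LIF), a cytokine that keeps mouse stem cells undifferentiated, and had retinoic acid at 5 µM for 5 and 6 days. The earlier libraries are those of days 1 to 4 under the same treatment and of day 0, with LIF and the DMSO vehicle. Total RNA depleted of ribosomal RNA was sequenced in 1 library a day, so a difference between the days has no replicate check and no p-value is given. Nothing in the labels tells if each day was its own culture.

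Retinoic acid is the ligand of nuclear retinoic acid receptors, and it moves embryonic stem cells out of pluripotency toward extraembryonic endoderm, mesenchymal or neural fates according to culture conditions. Short messenger RNAs encode many small, abundant proteins: those of the ribosome, the respiratory chain, the proteasome and the actin cytoskeleton, made on free ribosomes in the cytosol. Other short messenger RNAs encode secreted, lysosomal and endoplasmic reticulum (ER) proteins, most of which begin with a hydrophobic signal peptide that brings the ribosome to the ER membrane.

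Day 6 differed from the earlier libraries in how much of it came from short genes. The 1850 genes held 13.9% of the reads of all genes on day 5, 14.0% on day 4 and 19.7% on day 0, and 55.2% on day 6. The 1850 genes had 1793816 reads on day 5 and 3366239 on day 6. All listed transcripts together had 16503844 and 7194325, totals that the shares above do not use. A value of 7 stood for 107 reads on day 5 and 46.6 reads on day 6. Before centring, 1674 of the 1850 genes were higher on day 6 and 176 were lower, with a median difference of 1.68 (log2), or 3.20-fold. The 9150 longer genes with a value of 7 or more on either day had a median difference of −1.56, or 2.95-fold lower. A centred difference therefore places a gene among the short genes and does not give its change in the cells.

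The difference went down with length within the short genes as well. The median was 3.00 for the 83 genes of up to 500 nt, 2.54 for 264 genes of 501 to 750 nt, 2.04 for 424 of 751 to 1000 nt, 1.51 for 500 of 1001 to 1250 nt and 1.04 for 579 of 1251 to 1500 nt. Across the 1850 genes the Spearman correlation of the difference with length was −0.64; genes of 1 pair of libraries are not independent, so this is a description. The limit itself marked no step: the median was 0.77 for the 123 genes of 1451 to 1500 nt, just inside it, and 0.73 for the 124 genes of 1501 to 1550 nt, just outside. Each gene is therefore also given against its length class, as its difference less the median of the short genes in the same class of 250 nt. On this measure the correlation with length was −0.054.

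**Figure D1:**
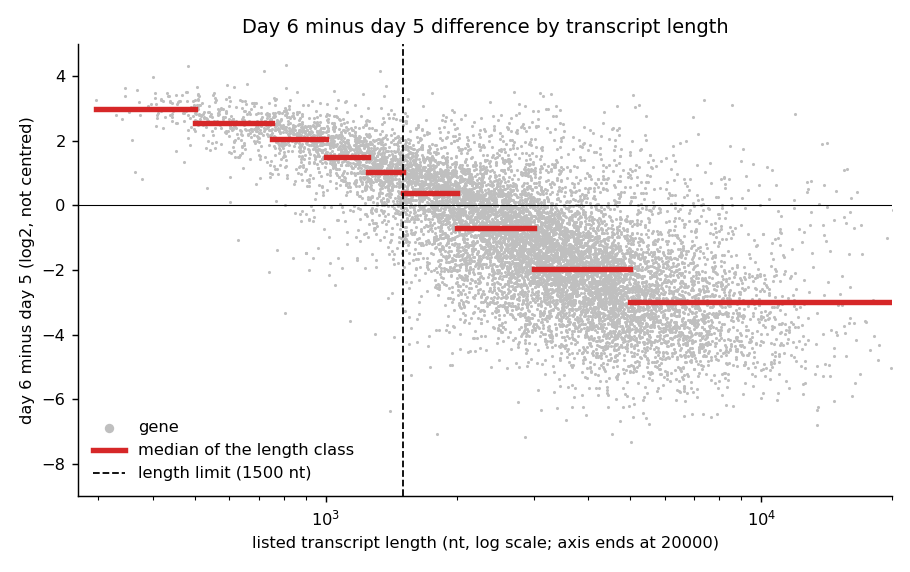
Day 6 minus day 5 difference (log2, not centred) of each gene with a value of 7 or more on either day against the length of its listed transcript (nt, log scale), with the median of each length class as a red bar and the limit of 1500 nt dashed. The class medians step down from 3.00 at up to 500 nt to −2.999 above 5000 nt.

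After centring, 9 of the 1850 short genes (0.486%) were at least 4-fold higher on day 6 and 125 (6.76%) lower by as much. At 2-fold the counts were 240 higher (13%) and 327 lower (17.7%). Against their length classes 5 genes (0.27%) were at least 4-fold higher, 100 (5.41%) at least 4-fold lower, 92 (4.97%) at least 2-fold higher and 258 (13.9%) lower by as much. Both measures had more large differences downward. Without centring 680 genes were 4-fold or more higher and 19 lower, and with quantile normalization of the 7 libraries 36 and 105. The SD of the centred difference over the genes was 1.16, and the middle of the distribution ran from −0.70 (25th percentile) to 0.64 (75th percentile). From day 4 to day 5, the step with the smallest spread, the SD over the 1850 genes was 0.28, with 11 at least 2-fold higher and 5 lower. Of 1692 short genes chosen instead by their values on day 4 or day 5, 9 were at least 2-fold higher (0.532%) and 5 lower (0.296%). For the 5 steps before day 6 the SD lay between 0.28 and 0.75 and the correlation with length between 0.0051 and 0.092.

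The rule on values admitted some genes through 1 day only. On both days 1600 genes reached 7, and of these 4 were at least 4-fold higher, 68 at least 4-fold lower, 196 at least 2-fold higher and 258 lower by as much. Through day 6 alone 190 genes passed, 5 of the 9 genes at least 4-fold higher among them, and through day 5 alone 60 passed, 57 of them at least 4-fold lower. Such genes had to differ, and their counts say nothing further.

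Tagln encodes transgelin, an actin-binding protein of smooth muscle (NM_011526, mm9, chromosome 9, 45737710 to 45743981). Its log2 values on days 0 to 6 were 5.33, 5.99, 11.23, 13.20, 12.08, 12.19 and 14.44. It was low on days 0 and 1 and highest on day 6. Its centred difference was 0.58, with a 95% counting interval of 0.52 to 0.63, and against its length class it was 1.21, or 2.32-fold higher. The interval is an exact binomial (Clopper-Pearson) one on the reads of the 2 libraries, here 3898 and 8089, and covers counting error only. The listed span of Tagln overlaps that of Pcsk7, and the sources used here do not give how reads of overlapping genes were assigned.

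Id3 encodes a factor that binds basic helix-loop-helix proteins and keeps them off DNA (NM_008321, chromosome 4, 135699736 to 135701307). Its values were 7.11, 8.67, 11.72, 11.46, 11.67, 12.003 and 14.32 on days 0 to 6, level from day 2 to day 5 and higher on day 6. The centred difference was 0.64 (0.58 to 0.70), and 0.27 against its length class. The other Id genes of the table were also short: Id1 had a centred difference of 0.39 and Id2 one of −0.77, or 0.03 and −0.14 against their classes. All 3 thus lay within 0.27 of the median for their length.

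Anxa2 encodes annexin A2, a calcium-dependent protein of the inner face of the plasma membrane (NM_007585, chromosome 9, 69301489 to 69339592). Its values were 8.58, 7.16, 8.14, 11.34, 11.83, 12.39 and 13.63, lowest on day 1 and highest on day 6. Relative to all short genes it was −0.44 (−0.50 to −0.38), relative to its length class 0.20. Krt19, a keratin of simple epithelia (NM_008471, chromosome 11, 100002125 to 100007233), had 5.85, 4.87, 8.32, 10.74, 11.26, 11.29 and 12.15. Its centred difference of −0.81 (−0.91 to −0.72) became −0.18 against its class. For both genes most of the negative centred value thus went with their length, 1387 and 1379 nt.

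B2m encodes β2-microglobulin, the light chain of MHC class I molecules, which enters the ER (NM_009735, chromosome 2, 121973422 to 121978818). Its values were 6.03, 7.16, 9.24, 10.51, 11.10, 10.98 and 11.98. It was the one of the 5 marker genes that lay more than 2-fold under its length class, at −1.05, with a centred difference of −0.68 (−0.78 to −0.58). Its span overlaps that of Patl2. Before centring all 5 marker genes had higher values on day 6 than on any earlier day.

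**Figure D2:**
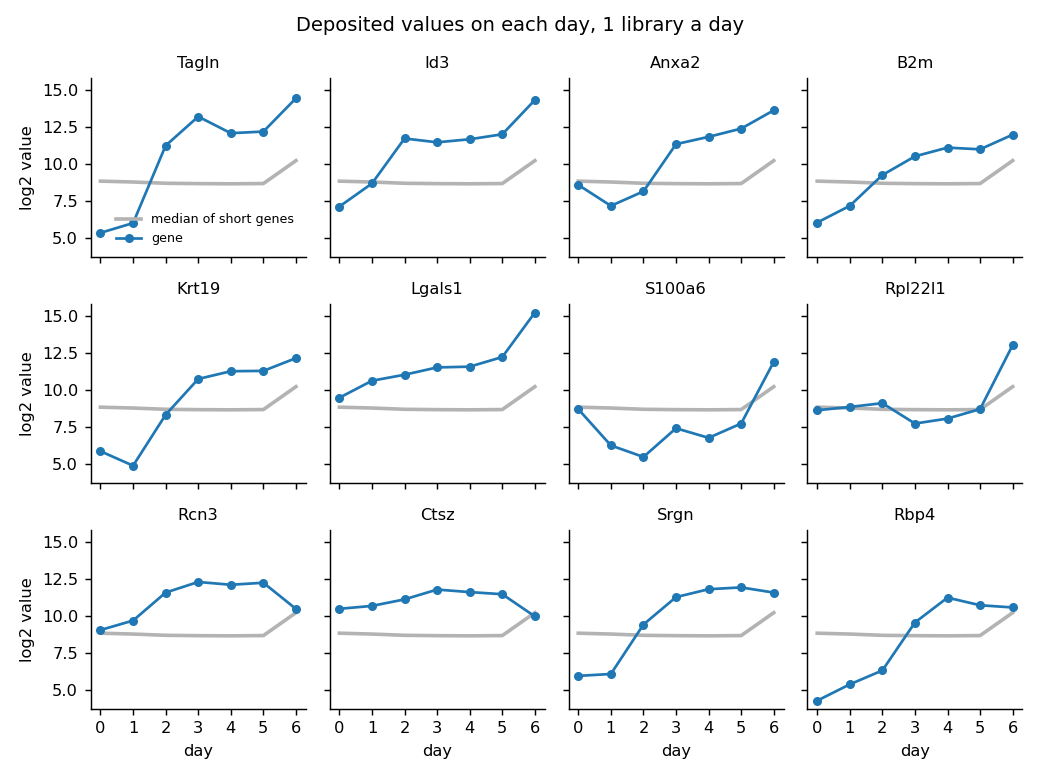
Deposited log2 values of 12 short genes on days 0 to 6, 1 library a day (blue), with the median of the 1850 short genes on each day (grey). The grey line steps up at day 6; Tagln, Id3, Lgals1, S100a6 and Rpl22l1 step up with it or more, while Rcn3, Ctsz, Srgn and Rbp4 go down.

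The highest centred differences included genes of small cytosolic and mitochondrial proteins and genes with few reads on day 5. Rpl22l1, a paralog of ribosomal protein L22 (NM_026517, chromosome 3, 28704432 to 28706337), had values of 8.62, 8.84, 9.10, 7.72, 8.06, 8.70 and 13.03 on days 0 to 6. Day 6 stood apart from the 6 earlier days, which lay within 7.72 to 9.10. Its reads were 348 on day 5 and 3045 on day 6, a centred difference of 2.65 (2.49 to 2.82), 6.29-fold, and 1.33 against its length class. S100a6 encodes a small calcium-binding protein (NM_011313, chromosome 3, 90416815 to 90418336). Its values were 8.70, 6.24, 5.46, 7.40, 6.75, 7.73 and 11.90, with a low on day 2 and the high on day 6. The centred difference was 2.50 (2.28 to 2.74), 5.67-fold, and 1.64 against its class.

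Cd79a, which encodes a chain of the B-cell receptor complex, went from 25 to 196 reads, a centred difference of 2.49 with a wide interval of 1.89 to 3.16. At 3.13 it was the highest of all short genes against its length class. None of the 4 listed genes of the blood and immune list is a short gene. Among the others at least 4-fold higher were Defb28, a defensin (66 and 455 reads, 2.31), Rhox3c, a reproductive homeobox gene (20 and 118 reads, 2.08), Serf1 (111 and 639 reads, 2.05) and Ceacam9, a placental adhesion-family gene (41 and 231 reads, 2.02). Next came Lsm5 (1.98), of the Lsm ring that binds U6 RNA, ribosomal protein gene Rps27 (1.97), Odf3b (1.87), Pin4 (1.82), the mitochondrial pyruvate carrier gene Brp44 (1.82), complex I gene Ndufa5 (1.80), cytochrome c oxidase gene Cox6c (1.78) and the tubulin cofactor gene Tbca (1.76). Of the genes named here Cd79a, Defb28, Rhox3c, Ceacam9 and Odf3b reached the value of 7 on day 6 alone, so they had to be higher before centring.

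Against the length classes, a further set of named genes stood highest. Rpl23 was at 1.74, Tomm7, of the import pore of the outer mitochondrial membrane, at 1.73, Rps6 at 1.68, Prdx1, a peroxide-reducing enzyme, at 1.66, and Ndufb5 and Ndufv2 of complex I at 1.63 and 1.62. Txn1, thioredoxin, lay outside the 15 highest at 1.50, and its values of 11.30, 11.05, 11.20, 11.34, 11.13, 11.03 and 14.05 on days 0 to 6 were level until day 5. Rps6 had 14.14, 14.06, 13.93, 13.52, 13.37, 13.34 and 16.06, slightly lower each day until day 5 and highest on day 6. It is listed at 1399 nt, while its longest coding transcript in GENCODE M21 has 878 nt. Its place against the length class therefore rests on the listed length. Prdx1 goes the other way, listed at 1423 nt with 2294 nt in GENCODE. Lgals3, galectin 3, was at 1.80, and H2-M3, a nonclassical MHC class I gene, at 1.79. Rnf125 stood at 1.99 on 22 and 78 reads, and Krt32 at 1.68 on 128 and 366. Lgals3 and Rnf125 reached the value of 7 on day 6 alone. The set highest against the length classes was chosen after its values were seen.

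Among the genes with the lowest centred differences, several are short only as listed. All of the 15 lowest but Hnrnpul1 reached the value of 7 on day 5 alone, so they had to be lower. Tram2, an ER membrane protein gene, had log2 values between 6.72 and 7.94 on days 0 to 5 and 1.46, or 1 read, on day 6, against 188 reads on day 5. Its centred difference was −8.03, with an interval of −13.34 to −5.54. Purb, a single-stranded DNA-binding factor, had 218 and 8 reads (−5.24). It is listed at 1137 nt, while its longest coding transcript in GENCODE M21 has 8319 nt. The same went for Aebp2, a cofactor of Polycomb complex PRC2 (921 and 5932 nt, −4.69), Wasl, an activator of actin branching (1309 and 4352 nt, −5.26), Hnrnpul1 (1241 and 3784 nt, −4.40) and Vgll4 (1298 and 2028 nt, −5.66). Cdk3 (−5.74), Cntfr (−5.04), Ccdc152 (−5.01), Pisd-ps2 (−4.73), Mylip (−4.50), Txndc11 (−4.44), Spp1 (−4.40), Arl10 (−4.14) and Cd68 (−3.82) made up the rest of the 15 lowest.

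Over all short genes with a GENCODE match, 1745 or 94.3%, a coding transcript longer than 1500 nt was annotated for 459 (26.3%). Among the genes at least 4-fold lower it was 66 of 110 (60%), and among those at least 2-fold higher 23 of 218 (10.6%). Over genes with a value of 7 or more on both days, the same shares were 398 of 1525 (26.1%), 35 of 64 (54.7%) and 22 of 180 (12.2%). These calls use the centred difference, which goes down with listed length. The centred median was −0.56 for the 459 genes and 0.17 for the 1286 matched genes within 1500 nt in GENCODE. Against length classes the 2 medians were −0.18 and 0.05. The deposited table itself lists a longer transcript for 111 of the 1850 short genes. It does so for 36 of the 125 genes at least 4-fold lower and for 0 of the 240 at least 2-fold higher. Of the 1286 genes whose GENCODE coding transcripts all lie within 1500 nt, 131 were at least 2-fold higher, 208 at least 2-fold lower, 4 at least 4-fold higher and 57 lower by as much, when centred anew.

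Of the 15 lowest genes short by both annotations, 8 are annotated to the ER, the lysosome or the outside of the cell in the deposited table. The lowest 3, Ccdc152 (−5.01), Arl10 (−4.14) and Eif4ebp3, a cytosolic inhibitor of the cap-binding protein eIF4E (−3.74 on 134 and 14 reads), are not. These 3 reached the value of 7 on day 5 alone. Rcn3, a calcium-binding protein of the ER lumen (NM_026555, chromosome 7, 52338283 to 52347583), had values of 9.05, 9.69, 11.58, 12.30, 12.11, 12.24 and 10.47. It stood within 11.58 to 12.30 from day 2 to day 5 and was lower on day 6, with 4058 and 517 reads. Its centred difference was −3.45 (−3.58 to −3.32), 10.9-fold lower, and −2.81 against its class. Ctsz, the lysosomal protease cathepsin Z (NM_022325, chromosome 2, 174252994 to 174264493), had 10.48, 10.68, 11.12, 11.78, 11.61, 11.47 and 9.97, lowest on day 6. Its centred difference was −3.18 (−3.34 to −3.02), and its span overlaps that of Th1l.

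Pga5, the secreted protease precursor pepsinogen (NM_021453, chromosome 19, 10743446 to 10752561), had values of 7.07, 6.95, 8.39, 10.69, 11.53, 11.42 and 9.76, highest on days 4 and 5. It was at −3.33 (−3.51 to −3.16). Further genes of the secretory route were Tmed9, a cargo receptor between ER and Golgi (−2.998), Kdelr3, which returns ER proteins from the Golgi (−2.56), Alg3, a mannosyltransferase of N-glycan assembly (−3.17), Bcap31, an ER membrane protein (−2.56), Car4, a membrane-anchored carbonic anhydrase (−3.35), Pnlip, a secreted lipase (−2.84), and Acp5, a lysosomal phosphatase (−2.54). Nrm, nurim, of the inner nuclear membrane, was at −2.80 and Cyb5d1 at −3.05. Car4, Pnlip, Acp5 and Cyb5d1 reached the value of 7 on day 5 alone. All the genes of this paragraph too were picked after their values were seen, by the size of the difference.

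To show what the coding start of some lower and higher genes looks like, the first 75 coding bases of 4 of each are printed, read from GENCODE M21 transcripts (GRCm38) with the genes' RefSeq numbers. Capitals mark codons 2 to 25 with T as their second base, which encode the hydrophobic residues phenylalanine, leucine, isoleucine, methionine and valine. The lower genes are Rcn3, Ctsz, Pga5 and Igfbp2, a secreted protein that binds insulin-like growth factors, and the higher ones are Rpl22l1, S100a6, Rps27 and Txn1.
Rcn3: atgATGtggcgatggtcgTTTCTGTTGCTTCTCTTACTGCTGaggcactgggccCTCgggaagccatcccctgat
Ctsz: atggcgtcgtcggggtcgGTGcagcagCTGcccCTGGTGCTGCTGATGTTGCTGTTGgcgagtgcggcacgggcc
Pga5: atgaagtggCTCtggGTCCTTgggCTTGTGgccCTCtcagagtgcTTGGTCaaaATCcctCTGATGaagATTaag
Igfbp2: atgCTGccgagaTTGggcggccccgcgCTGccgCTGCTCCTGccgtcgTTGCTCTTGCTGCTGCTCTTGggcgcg
Rpl22l1: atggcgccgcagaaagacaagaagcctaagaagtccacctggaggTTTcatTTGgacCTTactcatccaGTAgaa
S100a6: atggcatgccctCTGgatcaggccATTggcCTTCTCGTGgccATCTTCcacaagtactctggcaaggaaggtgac
Rps27: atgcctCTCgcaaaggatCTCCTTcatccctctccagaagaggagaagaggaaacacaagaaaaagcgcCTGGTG
Txn1: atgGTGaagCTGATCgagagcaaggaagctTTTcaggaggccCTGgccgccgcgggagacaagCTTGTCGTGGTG
Of codons 2 to 25 such codons numbered 10 in Rcn3, 10 in Ctsz, 12 in Pga5 and 13 in Igfbp2. Their longest unbroken run was 8 codons in Rcn3, 8 in Ctsz, 7 in Igfbp2 and 2 in Pga5. In Rpl22l1 they numbered 4, in S100a6 7, in Rps27 5 and in Txn1 9, with longest runs of 1 to 4 codons. The 8 genes were picked after their values were seen and not by size of difference alone, so the contrast between them is an illustration. Genes passed over lay on both sides of it. Among lower genes Arl10 had 10 such codons, Ccdc152 6 and Eif4ebp3 2. Among higher genes Serf1 had 3, Rhox3c 6, Cd79a 9, and Defb28 and Ceacam9 10 each.

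Over the 1740 short genes (94.1%) whose coding start could be read, the difference was lower in the classes with many such codons and much alike in the 2 classes with few. Against their length classes the median was 0.042 for the 721 genes with 0 to 5 such codons and 0.059 for the 705 genes with 6 to 8. It was −0.21 for the 263 genes with 9 to 11 and −0.84 for the 51 genes with 12 or more. The share at least 2-fold lower against the class was 9.15%, 11.6%, 23.6% and 39.2% in the same order, beside 13.9% of all short genes. Each of the 60 genes that passed through day 5 alone had to be at least 2-fold lower against its class. The shares by codon class were not repeated without them. Of the genes at least 2-fold lower, 66 and 82 belonged to the 2 classes with up to 8 such codons and 62 and 20 to the others. Among genes short by GENCODE as well the 4 medians were 0.10, 0.085, −0.15 and −0.81. This measure was chosen after the values of single genes had been seen, and genes of 1 pair of libraries are not independent.

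The annotated location of the protein, taken from the gene ontology column of the deposited table, went with the difference as well. Of 79 short genes annotated to the ER, 35 were at least 2-fold lower and 3 higher by as much after centring, with a median of −0.79, and −0.82 against their length classes. The medians against length classes were −1.26 for 18 lysosomal genes, −0.95 for 36 genes of the extracellular space and −0.77 for 61 of the extracellular region. The 165 genes with 1 or more of these 4 terms had a median of −0.88, with 76 at least 2-fold lower, 33 of them by 4-fold or more, and 7 at least 2-fold higher. The 1636 genes annotated with none of the 4 had a median of 0.06, with 241 at least 2-fold lower and 223 higher by as much. From day 4 to day 5 the centred median of the 165 genes was 0.01. With a value of 7 or more on both days, 147 genes with the terms had a median of −0.79 and 1416 without them one of 0.06.

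The remaining compartments lay closer to 0 or above it. Against length classes the 273 genes integral to membranes had a median of −0.51 and the 58 Golgi genes one of −0.24. The 471 nuclear genes were at 0.10, the 434 cytoplasmic genes at 0.08, the 380 mitochondrial genes at 0.18 and the 102 genes of the inner mitochondrial membrane at 0.26. The 133 ribosome genes were at 0.35 and the 27 proteasome genes at 0.42. The terms overlap, so a gene can stand in several. Short by GENCODE as well, 118 genes with the 4 terms had a median of −0.69 and 1158 without them one of 0.09. The choice of these 4 terms followed the values of single genes.

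**Figure D3:**
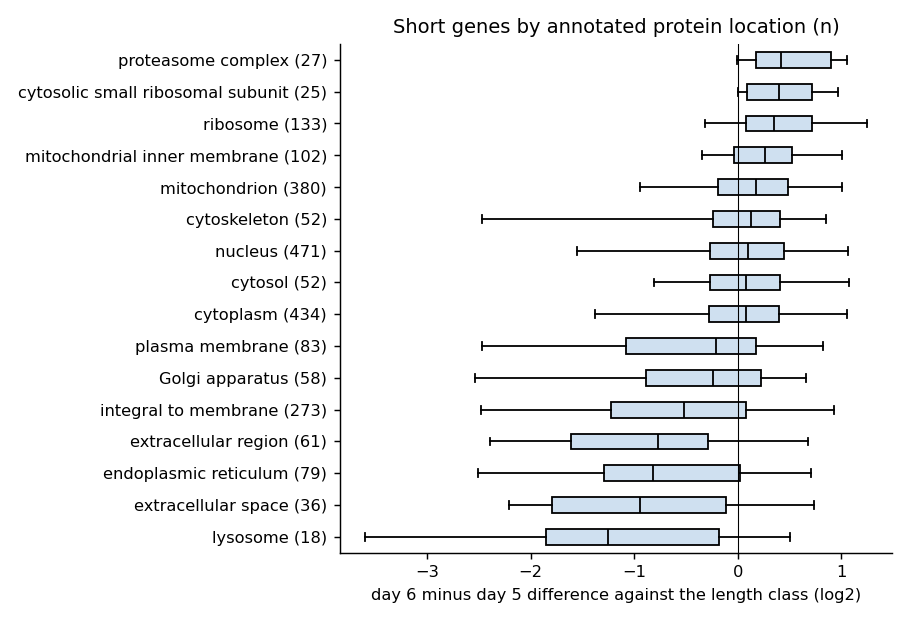
Day 6 minus day 5 difference against the length class (log2) of short genes by annotated location of their protein, with the number of genes in brackets; boxes span the quartiles with the median as a line, and whiskers run from the 5th to the 95th percentile. The medians run from −1.26 for the lysosome to 0.42 for the proteasome complex.

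Within the genes of the 4 terms, the medians also differed between classes of the coding start. The 37 genes with 0 to 5 codons with T as second base had a median of −0.01 against their length classes, the 52 with 6 to 8 one of −0.67, the 55 with 9 to 11 one of −1.05 and the 16 with 12 or more one of −0.95. In the class of 0 to 5, 24.3% were at least 2-fold lower, beside 8.33% of the genes with none of the terms in that class. These shares too were not repeated without the genes that passed through day 5 alone. Genes with 7 or fewer such codons lay on both sides: Alg3, with 4, was at −2.53 and Rbp4, with 7, at −2.19. The higher ones named next were picked after their values were seen. Lgals1, galectin 1, with 7 such codons, had log2 values of 9.47, 10.62, 11.03, 11.52, 11.57, 12.22 and 15.23 and stood 0.96 above its class. Tmsb4x, thymosin β4, with 4, stood 0.45 above and S100a10, a partner of annexin A2, with 7, stood 0.70 above. Timp1, a secreted inhibitor of matrix proteases with 10 such codons, was at −0.49. Mif, macrophage migration inhibitory factor, with 9, was at −0.77. Cytosolic enzymes that carry 1 or more of the terms also lay below their class. Examples, named after their values were seen, are Gstm1, with 9 such codons, at −1.16 and Aldoa, with 5, at −0.44. Among genes with none of the 4 terms, the 35 with 12 or more such codons had a median of −0.77 and the 684 with 0 to 5 one of 0.05. The 208 with 9 to 11 had a median of −0.11, with 33 at least 2-fold lower and 10 higher by as much against length classes. Cd79a, Defb28 and Ceacam9 belong to these 208 genes and stood 3.13, 0.98 and 2.66 above their length classes.

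**Figure D4:**
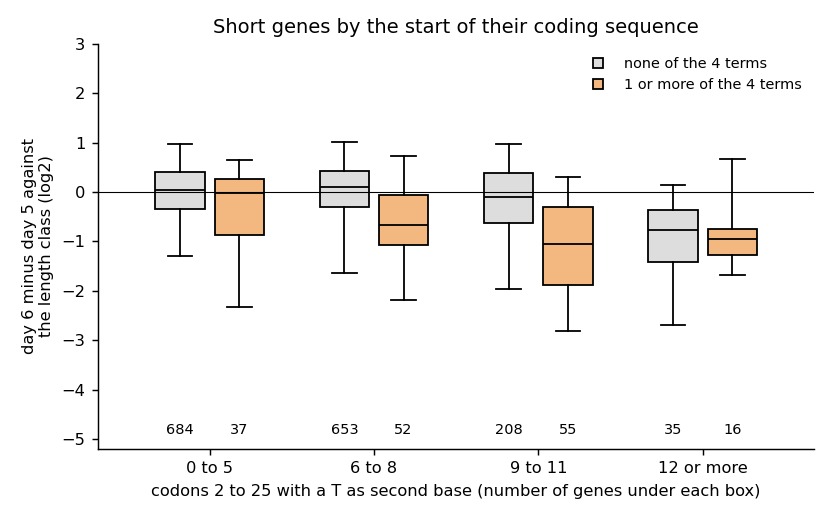
Day 6 minus day 5 difference against the length class (log2) by the number of codons 2 to 25 with T as second base, for short genes with none (grey) or at least 1 (orange) of the terms ER, lysosome, extracellular region and extracellular space; boxes, lines and whiskers show quartiles, median and the 5th and 95th percentiles. Both sets lie near 0 at 0 to 5 such codons and under −0.7 at 12 or more.

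The counts of the gene lists that follow stand beside shares over all short genes of 13% at least 2-fold higher and 17.7% lower. At 4-fold these shares were 0.486% and 6.76%. For counts against length classes they were 4.97% at least 2-fold higher and 13.9% lower. The machinery of protein synthesis stood above the other short genes, and in part beyond what its length gave. Of 76 cytosolic ribosomal protein genes, 53 were at least 2-fold higher and 0 lower by as much, with a median of 1.16. Their median length was 640 nt, and against length classes their median was 0.45, with 65 of 76 above 0 and 11 at least 2-fold higher. On day 5 their values ran from 8.70 to 14.38 and on day 6 from 13.03 to 16.78. Rpl22l1 and Rps27 led them after centring, and Rpl23 and Rps6 against the classes of their listed lengths. Rpl4 was at 0.02 after centring and 0.66 against its class. Rps4y2 was the lowest at −0.17. Ribosomal protein genes have many near-identical pseudogenes, and the counting of reads that fit several copies is not known here. Of 18 translation factor genes 1 was at least 2-fold higher (Eef1b2, an exchange factor of elongation, 1.12) and 1 lower, with a median of 0.27. The lower one was Eif4ebp3, which was admitted through day 5 alone and had to be lower.

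Mitochondrial genes resembled other genes of their length more closely. Of 31 complex I genes 15 were at least 2-fold higher and 0 lower, with a median of 0.99, but their median length was 563 nt and the median against length classes 0.12. Of 21 genes of complexes II to IV 6 were at least 2-fold higher and 0 lower (medians 0.71 and 0.30), led by Cox6c and Cox7c. Of 14 ATP synthase genes 7 were at least 2-fold higher and 0 lower (0.98 and 0.28). Of 56 mitochondrial ribosomal protein genes 16 were at least 2-fold higher and 0 lower (0.64 and 0.27).

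The proteasome, which degrades ubiquitin-tagged proteins, had nearly the same median by both ways of centring. Of 26 subunit and assembly genes 2 were at least 2-fold higher (7.69%, beside 13% of all short genes) and 0 lower, and against length classes 5 were higher (19.2%, beside 4.97%). The medians were 0.51 after centring and 0.49 against length classes, where 25 of 26 lay above 0. Psme2, an activator subunit induced by interferon, led with 7.72, 7.91, 8.47, 8.12, 8.42, 8.62 and 11.73 on days 0 to 6 and a centred difference of 1.43 (1.25 to 1.60). Of 24 splicing snRNP and Lsm genes 7 were at least 2-fold higher and 1 lower (medians 0.82 and 0.10), and of 20 DNA replication and cell-cycle genes 1 was higher and 0 lower (0.32 and 0.37). Of 30 RNA polymerase and transcription genes 3 were higher and 1 lower (0.40 and 0.19), with Polr2k at 1.34 and Med22 at −2.71. Med22 reached the value of 7 on day 5 alone, so it had to be lower, and a GENCODE transcript of it has 3506 nt.

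**Figure D5:**
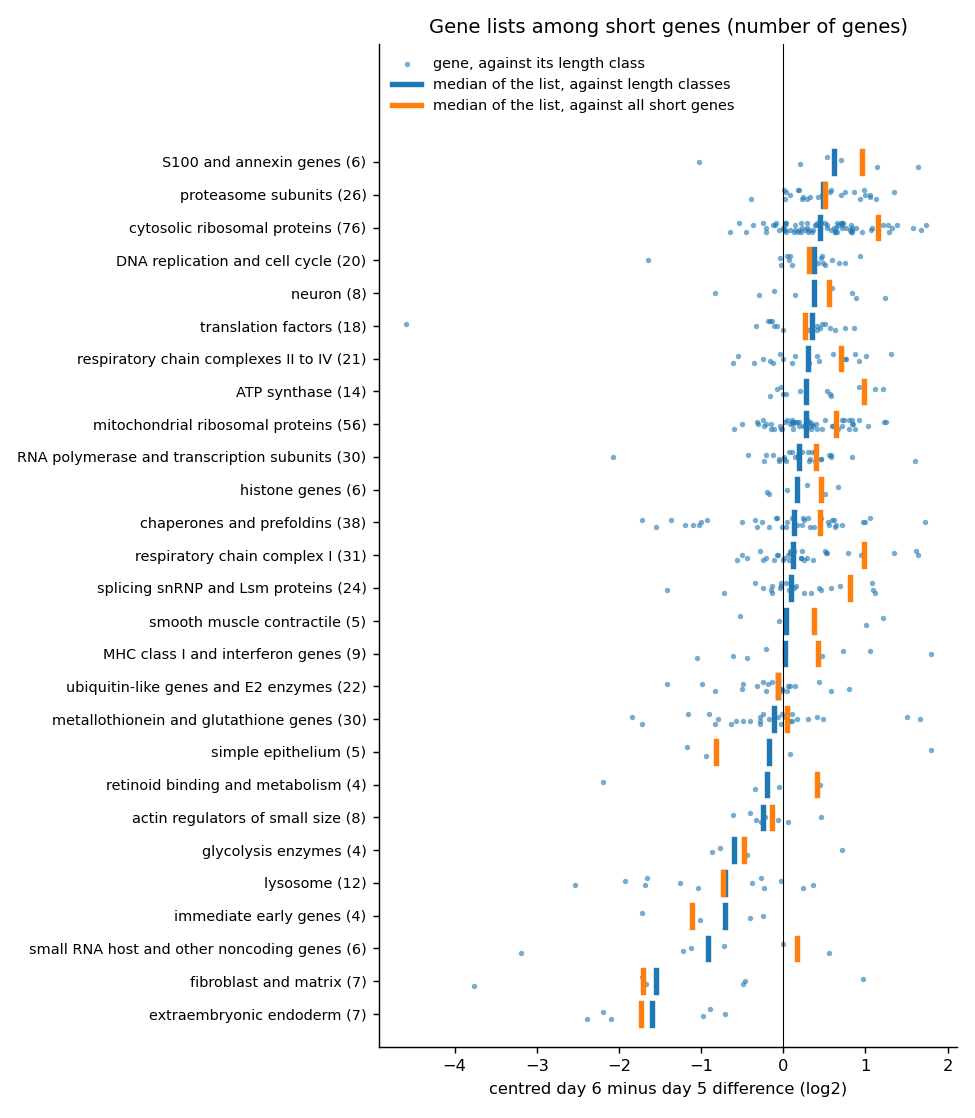
Day 6 minus day 5 differences (log2) of the gene lists with at least 4 short genes, the number of genes in brackets: each point is a gene against its length class, blue bars are list medians against length classes and orange bars list medians after centring on all short genes. For complex I, ATP synthase and cytosolic ribosomal proteins the orange bar lies well to the right of the blue one; extraembryonic endoderm and fibroblast and matrix genes have both bars under −1.5.

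Markers of differentiated lineages had mixed positions, and the lower ones were mostly secreted proteins. In RNA from whole cultures, fewer cells of a type and less RNA per cell cannot be told apart. The extraembryonic endoderm list, for the yolk sac lineages, has 26 genes in the table and 7 short ones. Of these 5 were at least 2-fold lower, 2 of them by 4-fold or more, and 0 at least 2-fold higher, with medians of −1.73 and −1.60, and all 7 lay below their length class. Srgn, the proteoglycan core protein serglycin, had 5.94, 6.07, 9.42, 11.27, 11.81, 11.93 and 11.58 on days 0 to 6, high from day 3 on. On day 6 it was −2.03 (−2.13 to −1.93) among short genes; GENCODE lists 1727 nt for it. Rbp4, which carries retinol in blood, had 4.26, 5.37, 6.31, 9.55, 11.24, 10.72 and 10.57, with a centred difference of −1.83 (−1.97 to −1.68) and −2.19 against its class.

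The other extraembryonic endoderm genes were Apoe (−2.24 centred, −1.60 against its class), Apoa1 (−1.73 and −2.10) and Ttr (−1.14 and −0.98), all secreted carriers of lipid or hormone, and 2 genes of proteins that are not secreted. These were S100g, a calcium-binding protein (0.43 and −0.90), and Cited1, a transcription cofactor (−0.35 and −0.71). The 5 genes of secreted proteins were thus the 5 lowest against all short genes. Whether lineage or the route of the protein goes with the difference cannot be told apart in 7 genes.

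The fibroblast and matrix list has 29 genes in the table and 7 short ones, 4 of which were at least 2-fold lower, 3 of them by 4-fold or more, and 1 at least 2-fold higher (medians −1.71 and −1.54). Spp1, osteopontin, had 12.21, 9.31, 9.87, 10.85, 9.89, 9.09 and 6.36 and was the lowest at −4.40 (−4.98 to −3.87). Admitted through day 5 alone, it had to be lower. Ppic, a cyclophilin of the ER, was at −2.36, Igfbp2 at −2.31, and Glipr1 at −1.71. Igfbp7 was at −0.63 and Timp1 at −0.12. Lgals1 was the 1 higher gene, at 1.33 (1.28 to 1.38).

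Smooth muscle genes of short length lay on both sides. None of the 5 was 2-fold apart after centring, with medians of 0.37 and 0.03. Actg2, enteric smooth muscle actin, and Tagln lay 1.01 and 1.21 above their length classes, Myl6 and Myl9 at 0.03 and −0.05, and Tpm1, tropomyosin, at −0.53. Of 5 simple-epithelium genes Lgals3 was at least 2-fold higher, and Spint2, a membrane-bound protease inhibitor, and Cldn7, a tight-junction protein, were at least 2-fold lower (−1.81 and −1.10). The keratins Krt18 and Krt19 were at 0.08 and −0.18 against their classes.

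Of 8 neuron genes 1 was at least 2-fold higher (12.5%, beside 13% of all short genes) and 0 lower (medians 0.55 and 0.37). It was Fabp7, admitted through day 6 alone, a fatty acid-binding protein of radial glia, with 24 and 102 reads and a centred difference of 1.61 (0.96 to 2.32). Stmn1, a microtubule regulator, and Uchl1, a neuronal ubiquitin hydrolase, lay at 0.60 and 0.83 against their classes, and Nnat, an ER membrane protein, at −0.83. Among retinoid genes the cytosolic carriers Crabp1, Crabp2 and Fabp5 were at −0.35, −0.05 and 0.45 against their classes and the secreted carrier Rbp4 far below. Of 31 listed pluripotency genes 2 are short: Pou5f1, which encodes Oct4, went from 7.66 to 7.90 (centred −1.43, −1.82 to −1.05) and Dppa5a from 7.68 to 9.51 (0.15, −0.13 to 0.44). Both lay below their class, at −0.80 and −0.71. The 17 genes of the m6A and Zfp217 list in the table, on which the series centres, include 0 short ones.

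Of 12 lysosome genes 4 were at least 2-fold lower and 1 higher by as much (medians −0.73 and −0.71). After Ctsz came the tetraspanin genes Cd9 (−2.09 centred) and Cd63 (−0.89), and Cst3, a secreted protease inhibitor (−0.79). Within the vacuolar proton pump, subunits of the membrane and the cytosolic sector were compared after their values were seen. Atp6v0c, Atp6v0b and Atp6v0e stood at −1.68, −1.03 and −0.38 against their classes, and Atp6v1e1, Atp6v1f, Atp6v1d and Atp6v1g1 at −0.27, −0.23, −0.03 and 0.37. The cytosolic protease inhibitor gene Cstb was the higher gene, at 1.10. The 3 membrane-sector values lay under the 4 others on this measure but not after centring on all short genes, where Atp6v0e was at −0.01, Atp6v1e1 at −0.43 and Atp6v1d at −0.67.

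The S100 and annexin list had 3 of 6 at least 2-fold higher and 0 lower, with medians of 0.95 and 0.62. S100a10 and S100a11 were at 1.57 and 1.40 beside S100a6, Anxa1 at 0.51 and S100a1 at −0.17. Against length classes 2 were higher by 2-fold or more and 1 lower, S100a1 at −1.03. Of 8 small actin regulators 2 were higher and 0 lower (medians −0.14 and −0.25), Tmsb4x at 1.32 and Tmsb10 at 1.26, the latter at −0.07 against its class of the shortest genes. Of 9 MHC class I and interferon genes 2 were higher and 0 lower (0.42 and 0.02), with H2-M3 and Psme2 at the top and B2m at the bottom.

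Base composition and level moved with the difference to a lesser degree. Over 1785 genes (96.5%) with a matched transcript, the Spearman correlation of GC content with the difference against the length class was −0.14. The class medians went from 0.13 for 252 genes of up to 45% GC to −0.14 for 465 genes of 55 to 60%, and was −0.06 for 114 genes over 60%. The correlation with the mean value over the 7 days, day 6 included, was 0.19. The day 6 library had the fewest reads of the 7, and the labels give no measure of RNA quality; the part of either in the day 6 differences was not tested.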

How the data were processed

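The deposited table holds log2 values per RefSeq transcript on mm9, which the authors made from reads aligned with BWA 0.7.3, per the submitters' processing notes. The sources used here give no counting tool, strand setting, annotation version or scaling. Raised from the log2 scale, the deposited values were whole multiples of 1 step per library (values of up to 1000 reads lay within 0.05 of a whole number), so reads could be recovered. The values are not divided by length, and levels of different genes are not compared. Transcripts of 1 gene, overlapping genes and near-identical copies can share reads: Gm10230, Gm14632 and Gm14819 had the same values on all 7 days.

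Genes were chosen by length and value as the opening of the results states, and each day 6 minus day 5 difference was centred on the median of the short genes and, beside it, on the median of its length class. Counts at least 4-fold and 2-fold apart are sizes, with no test, since each day had 1 library. The calculation was tested on simulated data and ran in Python 3.11.15 with pandas 2.3.3, numpy 2.4.6 and scipy 1.17.1. Depth in total recovered reads ran from 7194325 (day 6) to 17923852 (day 4). Transcript lengths, GC content and coding starts came from GENCODE M21, matched by RefSeq number.

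Named genes were the 5 markers, the 15 largest differences in each direction with at least 50 reads on the higher day and no predicted, clone or small RNA name, the 2 highest and 2 lowest of each list with at least 4 short genes, and the Id and pluripotency genes. Other genes of the 34 lists, the ontology terms, the codon measure and the 15 lowest genes within 1500 nt in GENCODE and 15 highest against their length class were named after their values were seen. The members and lists were chosen with earlier results of these data known. 1 further list is not reported here.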

Additional observations from a re-analysis of the deposited data

How the results depend on the processing

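Counts of genes 4-fold or more higher and lower, then 2-fold or more higher and lower, given here in that order and 9, 125, 240 and 327 in the results, changed by over 1.5 times as follows. With a length limit of 1000 nt they were 2, 36, 30 and 94, and with 2000 nt 88, 332, 661 and 738. A minimum value of 9 gave 5, 54, 124 and 203. Without centring they were 680, 19, 1371 and 66, so the direction of most differences rests on it. Genes short in GENCODE as well, an alternative added after the data were seen, numbered 4, 57, 131 and 208. The limit of 1000 nt, the minimum of 9 and the GENCODE setting also test fewer genes. Centring within length classes changed the higher counts to 5 and 92, and quantile normalization changed the count at least 4-fold higher to 36. The remaining alternatives (no minimum value, at least 50 reads, the longest, all or only short transcripts of a gene, the transcript chosen over all lengths first, day 4 or the mean of days 4 and 5 in place of day 5, coding transcripts only) stayed within 1.5 times. Of the named genes at least 4-fold apart, 597 values under alternatives included 0 of the other sign and 69 under 4-fold. Smaller differences were less stable: of all named genes 21 of 153 changed sign within length classes, 18 of 153 at 2000 nt and 41 of 153 without centring. List medians changed sign for 7 of 20 lists at 1000 nt, 4 of 27 with quantile normalization, 3 of 27 within length classes and 6 of 27 without centring. No paired analysis was possible because each day has 1 library. Precision was limited most for genes with few reads on day 6, such as Tram2 with 1.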

Other observations

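Genes of thiol and peroxide metabolism, which the results do not describe as a group, lay on both sides. Of 30 short metallothionein and glutathione genes 2 were at least 2-fold higher and 4 lower by as much, with medians of 0.05 after centring and −0.12 against length classes. Gpx3, a glutathione peroxidase secreted into plasma, had log2 values of 7.83, 9.13, 11.95, 12.81, 13.69, 13.63 and 12.83 on days 0 to 6, high from day 2 on and lower on day 6 than on days 4 and 5. Its centred difference was −2.48, with a 95% counting interval of −2.54 to −2.42. Gstm1, a glutathione transferase, had 8.27, 7.95, 8.23, 8.95, 12.53, 13.47 and 13.34, with a step up between days 3 and 4 and a centred difference of −1.80. Gstm1 and Gstm4 (−1.12), both at least 2-fold lower, encode cytosolic enzymes. Gstm1 nevertheless carries 1 or more of the 4 location terms of the results and is counted with those genes there. Prdx1 went from 12.22 to 14.92 (1.02) and Txn1 from 11.03 to 14.05 (1.34).

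Of 6 short small RNA host and other noncoding genes 1 was at least 2-fold higher and 2 lower by as much. Airn, the antisense RNA that silences Igf2r on the paternal chromosome, had 0.94, 2.37, 4.52, 6.39, 7.01, 7.60 and 5.92, upward through day 5 from the lowest value of the day 0 library. It is listed at 1178 nt within a span of chromosome 17 from 12934176 to 13008423. The GENCODE comparison took coding transcripts only, so it does not check this length. The span of Airn overlaps that of Igf2r, so reads of the pair may not be separable, and its centred difference was −3.36 on 162 and 22 reads. Airn reached the value of 7 on day 5 alone, so it had to be lower. Snhg6, a host of small nucleolar RNAs, was at 1.33 after centring and 0.00 against its length class. Of 4 glycolysis genes 2 were at least 2-fold lower, Aldoa at −1.07 and Gapdh at −1.03, and Ldhb stood 0.72 above its class. Aldoa too carries 1 or more of the 4 location terms. All 4 short immediate early genes lay under their length class, Ier3 lowest at −1.72 and Gadd45g highest at −0.25. Ier3 reached the value of 7 on day 5 alone, so it had to lie under its class. Of 38 chaperone and prefoldin genes 8 were at least 2-fold higher and 3 lower (medians 0.45 after centring and 0.13 against length classes), of 22 ubiquitin-like and E2 genes 1 and 2 (−0.06 and −0.06), and of 6 histone genes 2 and 0 (0.46 and 0.17). Of 3 p53 and stress genes, 3 Hox genes and 2 imprinted growth genes none was higher and 1 each was lower, with medians of −0.23, −0.76 and −1.05.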
